A study of Mus musculus with 12 samples.

Results

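Growth cone genes were examined for 5-hydroxymethylcytosine (5-hmC) in mouse dorsal root ganglia. The 10 members are Gap43, Crmp1, Dpysl2, Dpysl3, Dpysl4, Dpysl5, Stmn2, Stmn4, Basp1 and Marcks, taken by gene name from 3 deposited tables of differentially hydroxymethylated regions. They carried 23 of the listed regions, 8 of 12244 between PL and control, 8 of 35242 between DCL and control and 7 of 22944 between PL and DCL. PL is a peripheral lesion of the sciatic nerve, DCL is a lesion of the dorsal column, which holds the central branches of the same neurons, and the control is uninjured ganglia from the other side of PL animals. Lumbar ganglia were collected 24 h after injury. Each group had 3 enriched libraries and each library pooled 3 animals, and the control ganglia came from PL animals. No genotype, strain or age is stated in the labels.

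The growth cone is the motile tip of a growing axon. Gap43, Basp1 and Marcks are lipid-anchored or membrane-bound proteins that are substrates of protein kinase C and link membrane phosphoinositides to actin. The collapsin response mediators, encoded by Crmp1 and the Dpysl genes, are cytosolic proteins that bind tubulin and carry semaphorin signals, and the stathmins Stmn2 and Stmn4 act on microtubule ends. Injured sensory neurons are known to raise Gap43 and other genes of this group when they regrow after a peripheral lesion. The mark 5-hmC is made from methylated cytosine by TET enzymes, mostly at CG dinucleotides, and is plentiful in gene bodies of neurons.

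For orientation, the sequences before the start sites of 2 members are given, with every CG in capitals, as these are the dinucleotides where the mark is mostly made. They cover 250 bases upstream of the start in RefSeq on GRCm38.p6, which is not the mm9 build of the tables. By the tables' own distances no listed member region fell within 250 bp before a start site. The Basp1 stretch is chr15:25413765-25414014 on the minus strand and holds 30 CG, and the Dpysl5 stretch is chr5:30711314-30711563 on the plus strand and holds 17 CG. The median over 32851 such stretches was 6, and 5.94% and 23.5% of them held at least as many as Basp1 and Dpysl5.
Basp1: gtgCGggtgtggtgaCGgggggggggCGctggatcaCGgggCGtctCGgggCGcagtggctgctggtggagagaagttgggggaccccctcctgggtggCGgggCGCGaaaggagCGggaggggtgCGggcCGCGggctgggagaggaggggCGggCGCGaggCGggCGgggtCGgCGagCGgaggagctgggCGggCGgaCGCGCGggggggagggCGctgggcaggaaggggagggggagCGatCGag
Dpysl5: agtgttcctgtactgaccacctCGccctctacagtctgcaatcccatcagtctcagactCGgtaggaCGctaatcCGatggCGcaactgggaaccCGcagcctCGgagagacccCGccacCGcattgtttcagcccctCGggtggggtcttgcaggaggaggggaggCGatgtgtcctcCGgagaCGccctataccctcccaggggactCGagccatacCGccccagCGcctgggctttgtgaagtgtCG

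Values are normalised read counts, in which the reads of a region are multiplied by a factor of each library. The value of 1 read ranged from 0.907 to 1.77 in PL and from 0.576 to 1.05 in control libraries of their table, and from 0.658 to 3.14 in DCL libraries. The first-listed DCL library is the shallowest, so its reads are multiplied most, and it leads many DCL values below. The library order within a cell is the same in all tables, since 76, 150 and 2609 regions with identical bounds in 2 tables gave the same reads in the same order for the shared control, PL and DCL libraries. Tissue identity could not be checked from DNA marks. Of the marker genes chosen, 5, 7 and 6 of 15 sensory neuron genes were named in the PL, DCL and lesion against lesion tables, as were 3, 8 and 5 of 13 glial, 0, 2 and 1 of 9 immune and 2, 5 and 2 of 10 vascular and fibroblast genes. Over all protein-coding genes the shares were 19.5%, 36.8% and 29.5%. A ganglion mixes these cell types, and a shift in the share of cells that carry the mark cannot be told apart from a shift of the mark within cells.

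Between PL and control, 3 of 10 members carried a region, where 19.5% of protein-coding genes did. Between DCL and control 5 of 10 did, against 36.8%, and between the lesions 5 of 10, against 29.5%. Higher regions made up 3 of 8 member regions after PL (50.4% of all listed regions), 7 of 8 after DCL (82.9%) and 2 of 7 for PL over DCL (24.9%). With so few members these counts are given as a description and no departure from the background is read from them. The median log2 ratio of the member regions was −1.20, 1.09 and −1.29 in the 3 tables, against 0.72, 1.12 and −1.37 over all listed regions, and the median size regardless of sign was 1.35, 1.28 and 1.59 against 1.44, 1.25 and 1.56. Dpysl2 and Dpysl5 carried regions in every table and held 15 of the 23 between them. Crmp1, Dpysl4, Stmn2 and Stmn4 carried none in any table. All but 1 of the 23 regions were placed in the gene body by the tables, the exception being an outer promoter region of Dpysl5. Over all listed regions 7039 of 12244, 19901 of 35242 and 13025 of 22944 were placed there. Members were matched by gene name, and intergenic regions near them carried no name, so the member count is largely set by the matching.

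**Figure D1:**
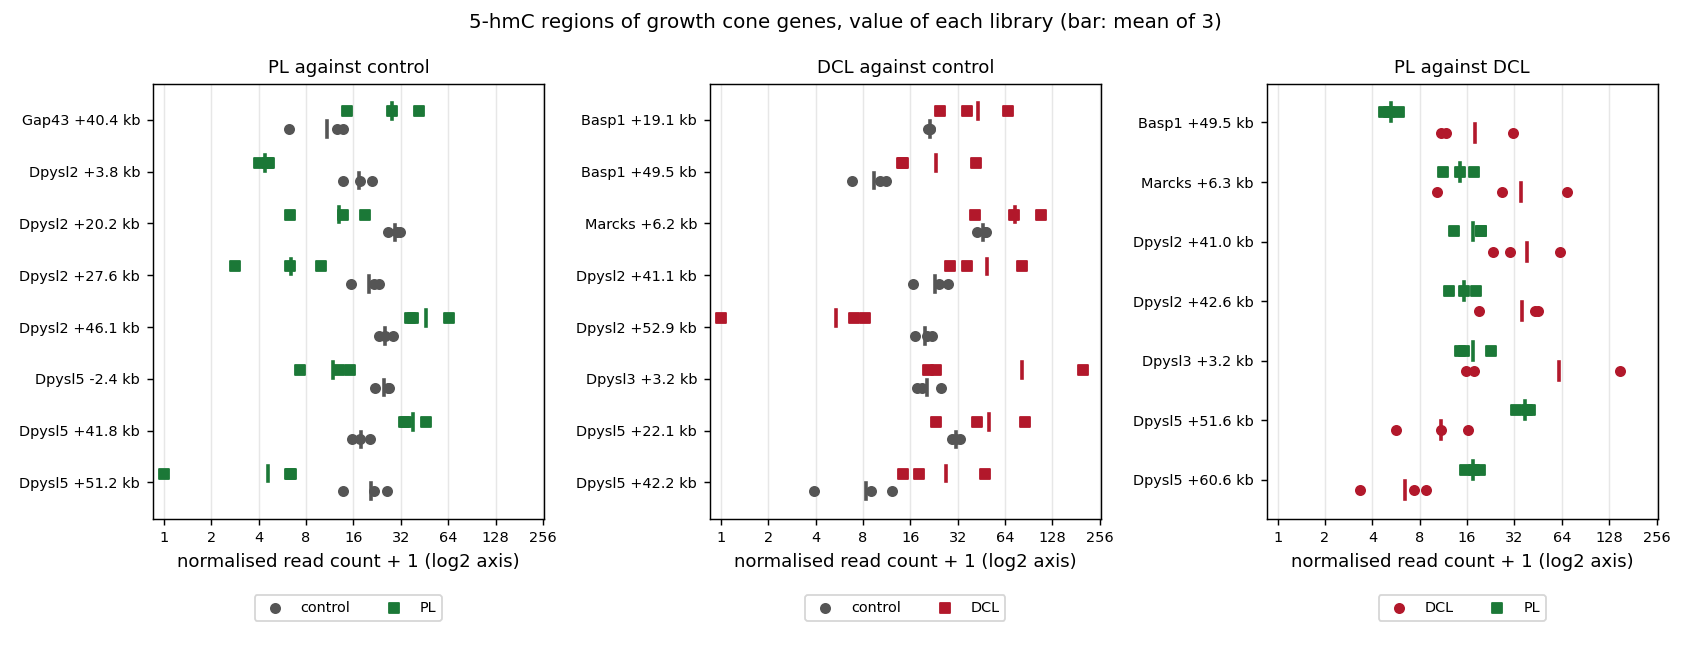
Normalised read count plus 1 of each library (log2 axis) for the 23 regions of growth cone genes, by table, where points are the 3 libraries of a group, bars their mean and each region is named by its gene and distance from the start site. PL and control libraries separate in all 8 regions of the left panel, while in Dpysl3 the first-listed DCL library, at 200.7 in the middle panel, stands far from the other DCL libraries.

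Gap43, a widely used marker of growing axons, was higher after PL in 1 region (mm9 chromosome 16, 42300261 to 42300480), 40394 bp into a gene of 92.1 kb. The PL libraries read 13.6, 27.0 and 40.8 and the control libraries 5.26, 12.7 and 11.5. The groups did not overlap, although the lowest PL library lay close above the highest control. The means were 27.1 ± 13.6 and 9.83 ± 4.0 (SD, n = 3), a log2 ratio of 1.47 that ranged from 1.05 to 1.79 when single libraries were left out. The values rest on 15, 18 and 23 reads after PL and 5, 19 and 20 in control, so the read numbers overlap before they are scaled for depth. The authors' deposited table gives it an adjusted p of 0.0118. Neither of the tables with DCL libraries lists Gap43, and no other listed region lay within 50000 bp of the gene in any table.

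Basp1, also known as CAP-23, a myristoylated protein of the same growth cone membrane domains, was higher after DCL in 2 gene body regions. Near the end of the gene (mm9 chromosome 15, 25293881 to 25294100), 849 bp before the listed transcript end, the DCL libraries read 40.8, 13.4 and 13.2 and the controls 5.85, 9.30 and 10.15. All DCL libraries lay above all controls, with means of 22.5 ± 15.9 and 8.43 ± 2.28 (SD, n = 3). The log2 ratio was 1.41, or 0.66 without the first-listed DCL library. These values rest on 13, 9 and 20 reads after DCL and 6, 15 and 19 in control, which overlap before they are scaled for depth. A region that covers this whole place (25293841 to 25294100) was lower in PL than in DCL, at 3.72, 4.11 and 4.91 after PL against 30.4, 9.97 and 10.7 after DCL. These groups did not overlap either, and the log2 ratio of −2.0 was −1.29 without the first-listed DCL library. PL values there rest on 6, 4 and 4 reads. Both tables share the DCL libraries, so the results are not independent.

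The other Basp1 region lay 19079 bp from the start (25324281 to 25324600). The DCL libraries read 65.9, 35.8 and 23.7 and the controls 20.47, 20.45 and 19.77, so the groups did not overlap but the DCL libraries spanned a wide range above very even controls. The log2 ratio was 1.05, and 0.56 without the first-listed DCL library, which is under 1.5-fold. Adjusted p-values in the authors' deposited table were 0.00395 and 0.00135 for the 2 regions against control and 0.00237 for the one between the lesions. The table of PL against control lists none for Basp1.

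Marcks, the myristoylated C-kinase substrate that binds phosphoinositides and actin, had 1 region after DCL (mm9 chromosome 10, 36852381 to 36852700). The table calls it gene body, but it lies 349 bp beyond the listed transcript end. This holds for 366 of 19901 gene body regions in that table, up to 900 bp past the end. The DCL libraries read 106.6, 71.7 and 40.1 and the controls 46.8, 47.7 and 41.7. The groups overlapped, as the third-listed DCL library lay below all controls, and the log2 ratio of 0.68 was 0.30 without the first-listed one. Between the lesions the first 200 bp of this place read 16.7, 10.3 and 13.5 after PL against 67.9, 25.5 and 9.27 after DCL. Again 1 DCL library lay below every PL library, and the log2 ratio of −1.34 was −0.36 with the first-listed DCL library left out. Adjusted p-values in the authors' deposited table were 0.00480 and 0.00538.

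Dpysl2 encodes CRMP2, the collapsin response mediator best known for binding tubulin dimers and for its phosphorylation downstream of semaphorin signals. After PL it had 3 lower regions toward the start and 1 higher region further in, on mm9 chromosome 14. The lower region nearest the start (67483541 to 67483740, 3797 bp from it) read 3.63, 3.00 and 3.55 after PL against 19.99, 16.7 and 12.7 in control. The groups lay far apart, at 3.39 ± 0.343 against 16.5 ± 3.66 (SD, n = 3) with a log2 ratio of −2.28. It rests on 4, 2 and 2 reads after PL and 19 to 25 in control.

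The second lower region of Dpysl2 (67467141 to 67467380, 20177 bp from the start) read 12.7, 18.0 and 5.32 after PL and 30.5, 29.4 and 25.4 in control. The third (67459761 to 67459980, 27567 bp from the start) read 1.81, 9.0 and 5.32 against 22.1, 20.7 and 14.4. In both, every PL library lay below every control, with log2 ratios of −1.24 and −1.83. The higher region (67441221 to 67441420, 46117 bp from the start) read 63.5, 37.5 and 35.5 after PL and 22.1, 27.4 and 24.2 in control. All PL libraries lay above the controls there, the log2 ratio was 0.89, and it fell to 0.57 without the first-listed PL library. Adjusted p-values in the authors' deposited table were 0.00893, 0.0261 and 0.00711 for the lower regions in order of distance from the start and 0.0115 for the higher one.

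No Dpysl2 region listed after DCL overlapped one listed after PL. Over all genes, 76 regions had identical bounds in these tables, which list 35242 and 12244, and partial overlap was not counted. No difference between the lesions is read from the lack of overlap. After DCL, Dpysl2 had 1 higher and 1 lower region. The higher one (67446281 to 67446480, 41057 bp from the start) read 81.5, 35.8 and 27.6 after DCL and 15.6, 26.6 and 23.5 in control. The groups did not overlap, but the lowest DCL library lay close to the highest control, and the log2 ratio of 1.14 was 0.53 once the first-listed DCL library was left out. The lower one (67434441 to 67434680, 52877 bp from the start) read 0, 5.97 and 7.24 after DCL against 19.5, 16.1 and 20.8 in control. It was the only lower member region after DCL, its libraries lay far apart, and its log2 ratio of −2.10 was −1.51 with the first-listed DCL library left out. Their adjusted p-values in the authors' deposited table were 0.00210 and 0.00126.

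In the direct comparison Dpysl2 was lower after PL in 2 regions. At the higher DCL region (here 67446281 to 67446540) PL read 18.6, 18.5 and 12.3 against 60.9, 28.8 and 22.4 after DCL, with a log2 ratio of −1.18 that was −0.64 without the first-listed DCL library. A further region (67444721 to 67444920, 42617 bp from the start) read 14.2, 11.3 and 17.2 after PL and 42.1, 44.3 and 18.0 after DCL. Both kept the groups apart. In the latter the second-listed DCL library was as high as the first, and the log2 ratio of −1.29 was −1.13 without the first-listed one. The authors' deposited table has adjusted p-values of 0.0128 and 0.00367 for them.

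Dpysl5 encodes CRMP5, the member of the family most unlike the others in sequence and lies on mm9 chromosome 5. After PL it was lower in an outer promoter region at −2448 bp from the start (31011721 to 31011920), at 6.35, 12 and 14.2 against 21.0, 25.4 and 25.9 in control. It was higher at 41752 bp into the gene (31055901 to 31056140), at 32.6, 45.0 and 33.7 against 14.7, 19.4 and 16.7. It was lower again at 51172 bp (31065341 to 31065540), at 5.44, 0 and 5.32 against 25.2, 20.7 and 12.7. The groups were apart in all 3 regions. Their log2 ratios were −1.15, 1.13 and −2.45, and the authors' deposited table gives adjusted p-values of 0.0127, 0.00544 and 0.00921.

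After DCL Dpysl5 was higher in 2 regions. At 42192 bp (31056361 to 31056560) the DCL libraries read 47.0, 13.4 and 17.1 and the controls 2.92, 11.2 and 8.01, so the groups did not overlap. This region starts 220 bp beyond the one that was higher after PL, and its log2 ratio of 1.81 was 1.05 without the first-listed DCL library. It rests on 15, 9 and 26 reads after DCL and 3, 18 and 15 in control, which overlap before they are scaled for depth. At 22092 bp (31036181 to 31036540) the DCL libraries read 84.7, 22.4 and 41.5 and the controls 32.2, 30.4 and 28.3. The second-listed DCL library lay below all controls there, and the log2 ratio of 0.71 was 0.08 with the first-listed one left out. Adjusted p-values in the authors' deposited table were 0.00122 and 0.0194.

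Directly compared, PL exceeded DCL in 2 Dpysl5 regions, the only member regions where it did. At 51612 bp (31065681 to 31066080) PL read 37.2, 39.1 and 31.9 against 4.68, 9.97 and 15.1 after DCL. This region lies 140 bp beyond the one where all PL libraries were below control, and it rests on 60, 38 and 26 reads after PL and 2, 9 and 31 after DCL. At 60632 bp (31074801 to 31075000) PL read 16.7, 14.4 and 18.4 against 2.34, 7.75 and 6.34 after DCL. In both the groups did not overlap, PL libraries varied little, and the log2 ratios of 1.86 and 1.59 were 1.52 and 1.23 when the first-listed DCL library was left out. The adjusted p of 5.56e-05 for the first was the smallest of any member region in the authors' deposited table, and it was 0.00528 for the second.

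**Figure D2:**
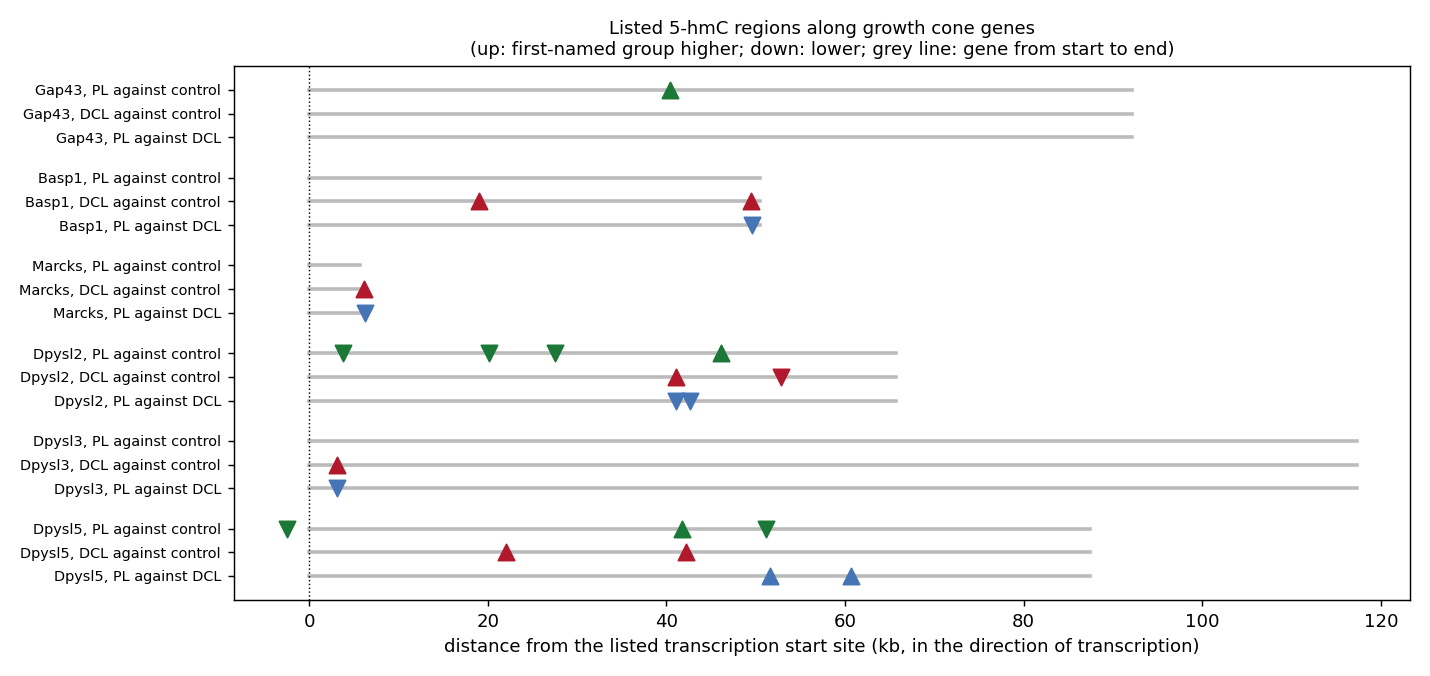
Position of the 23 regions along the 6 growth cone genes that carried any, as distance in kb from the listed start site in the direction of transcription, with 1 line per gene and table, upward triangles for regions higher in the first-named group and downward ones for lower. Between PL and control, the lower regions of Dpysl2 lie toward the start and its higher one beyond 46 kb, and Dpysl5 alternates. In the tables with DCL libraries all Dpysl5 regions are higher. The Marcks regions lie past the gene end.

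Dpysl3, which encodes CRMP4, carried the same region in both tables that hold DCL libraries (mm9 chromosome 18, 43594601 to 43594920, 3180 bp from the start of a gene of 117.3 kb). The DCL libraries read 200.7, 22.4 and 19.7 and the controls 16.6, 18.0 and 24.0. A single DCL library stood out and the other 2 lay among the controls, at 80.96 ± 103.7 against 19.5 ± 3.97 (SD, n = 3). The log2 ratio of 2.05 was 0.11 without the first-listed DCL library. Against PL the DCL libraries read 149.8, 16.6 and 14.6 and the PL libraries 14.2, 21.6 and 13.5, and the log2 ratio of −1.88 turned to 0.07 without that library. The same 64, 15 and 30 reads stand behind the DCL values in both tables, so the first-listed library had the most reads there as well as the largest scaling. The value of 1 read in DCL libraries is 1.34 to 1.35 times larger in one table than in the other, and on the scale of the DCL table the PL libraries would read 19.2, 29.1 and 18.2, which overlaps the controls. The tables were normalised separately, so this last comparison carries no test. The authors' deposited table gives adjusted p-values of 0.000339 and 0.000260.

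How far the DCL values rest on 1 library was counted next. Of the 7 higher member regions after DCL, 4 had all DCL libraries above all controls (46.5% of all higher regions), and 2 kept a 1.5-fold difference without the first-listed library (51.4%), namely the Basp1 region near the gene end and the Dpysl5 region at 42192 bp. Of the 5 regions lower in PL than in DCL, 3 had the libraries apart (59% of all such regions) and 3 kept 1.5-fold (70.4%), 1 in Basp1 and 2 in Dpysl2. After PL the libraries were apart in 3 of 3 higher regions (95.6% of all) and 5 of 5 lower ones (100%, or 6066 of 6067). The single lower DCL region (99.7%) and both regions higher in PL than in DCL (98.5%) also had the libraries apart. Regions were listed because they differed on these same values, so separation is a property of the lists. An exact permutation test of 3 against 3 libraries cannot give a p below 0.1 and none was run. The deposited adjusted p was under 0.01 in 4 of 8 member regions after PL (49.4% of all), 7 of 8 after DCL (92.4%) and 6 of 7 between the lesions (93.1%).

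**Figure D3:**
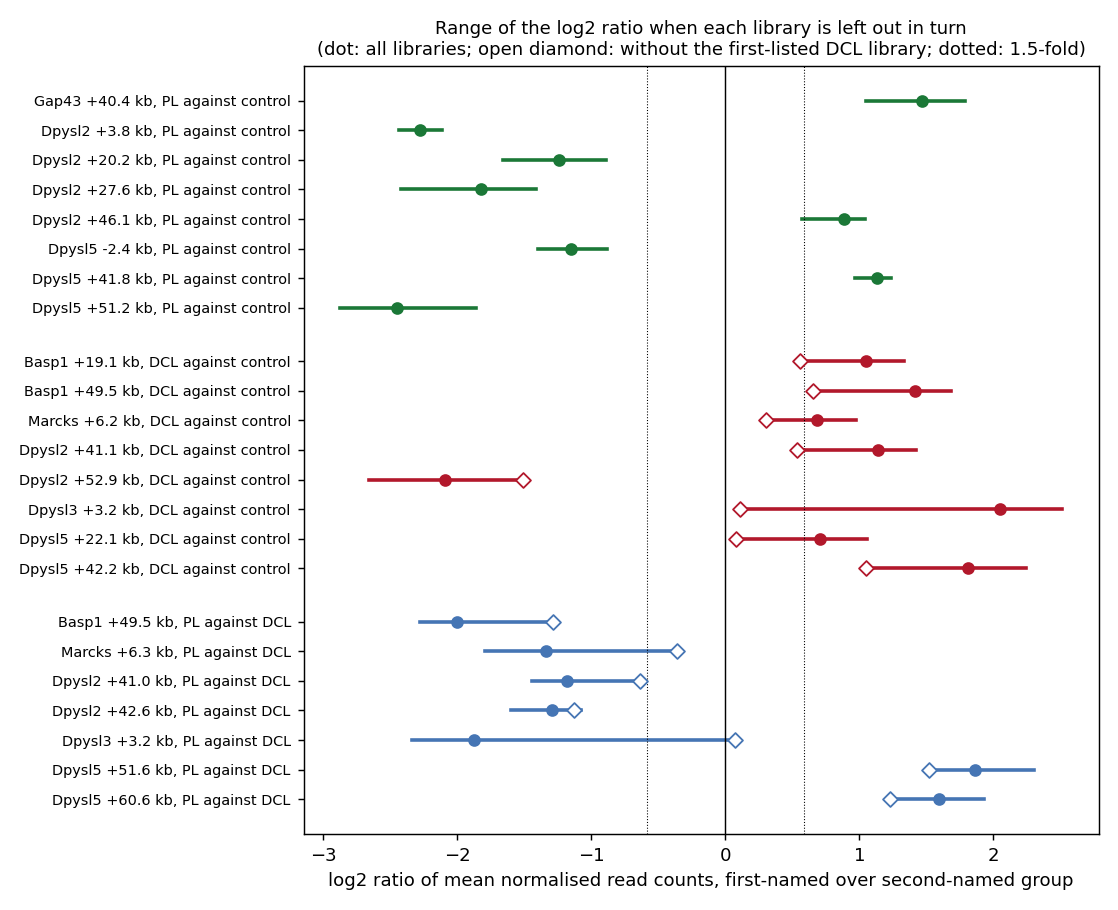
Log2 ratio of mean normalised read counts (first-named over second-named group) for each of the 23 regions with all libraries (dots), its range when each library is left out in turn (lines), its value without the first-listed DCL library (open diamonds) and 1.5-fold (dotted lines). Dpysl3 falls from 2.05 to 0.11 against control, while the 2 Dpysl5 regions higher in PL than in DCL stay above 1.2.

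Genes that act with the members at the growth cone were taken from a list of 58, among them kinases and partners of the CRMPs, actin regulators, semaphorin receptors and tubulins. Between PL and control 28 of 58 carried a region (48.3%, against 19.5% of protein-coding genes), 6 only higher, 13 only lower and 9 both. After DCL 39 did (67.2%, against 36.8%), 19 only higher, 5 only lower and 15 both, and between the lesions 33 (56.9%, against 29.5%), 2 only higher, 19 only lower and 12 both. Higher regions were 27 of 70 after PL (38.6%, against 50.4% of all listed regions), 147 of 180 after DCL (81.7%, against 82.9%) and 23 of 114 between the lesions (20.2%, against 24.9%), the latter pair near the background. The list holds several very long genes, which have room for more regions, but the part of gene length in these shares was not tested. The genes named next were chosen after their values were seen.

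Among regulators of actin, the actin-severing cofilin Cfl2 had a region with a PL mean of 11.1 ± 3.48 and a control mean of 31.2 ± 0.781 (SD, n = 3), and Limk2, a kinase of cofilin, had one at 13.6 ± 5.37 and 33.8 ± 1.5. Every PL library lay below every control in both. Other actin regulators on the list differed in direction after PL. Enah had 2 lower regions, Rhoa had 1 lower region, and Cdc42 and Evl had 1 higher region each. Cap1 and Ssh1 had 1 higher and 1 lower region each, and Limk1, Cfl1, Vasp, Rac1, Wasf1, Wasf3 and Cap2 had none. After DCL, Rhoa, Ssh1, Rac1, Limk1 and Evl had 7, 4, 3, 2 and 2 higher regions and no lower one. Cdc42, Vasp and Wasf1 had 1 higher region each, Cap2 and Wasf3 had 1 lower each, and Enah had 2 higher and 3 lower. Cfl1, Cfl2 and Cap1 had no region after DCL, and Limk2 had 2 higher and 1 lower. The lower one (mm9 chromosome 11, 3284381 to 3284680) overlapped the lower PL region of Limk2 (3284401 to 3284700). Its DCL mean was 11.7 ± 3.05 and its control mean 32.4 ± 1.59 (SD, n = 3), and every DCL library lay below every control. Both listings use the same control libraries. Of the kinases that phosphorylate CRMP2, Fyn had 2 higher and 3 lower regions after PL, Gsk3b had 3 lower and no higher ones, and Rock1 and Rock2 had 1 lower region each. After DCL Fyn, Gsk3b, Rock1 and Rock2 had 7, 6, 1 and 4 higher and 1, 2, 1 and 0 lower regions. Cdk5, its activator genes Cdk5r1 and Cdk5r2, and Gsk3a carried none in any table. The CaM kinase genes Camk2a and Camk2b had 0 and 2 higher regions after PL and 4 and 1 after DCL, with no lower ones. Fes, also a kinase on the list, had 1 higher region after DCL and none after PL. Of the proteins that bind CRMP2, the kinesin light chain gene Klc1 had 2 higher regions after PL, the clearer at 26.6 ± 0.350 against 12.5 ± 2.05 (SD, n = 3), and the endocytic adaptor Numb and the WAVE complex subunit Cyfip1 each had 2 higher regions and 1 lower. After DCL, Klc1, Numb and Cyfip1 had 4, 8 and 7 higher regions and no lower one. Other kinesin and tubulin genes on the list differed in direction. Kif5b had 2 lower regions after PL and 1 lower after DCL, with no higher one. Kif5c had 1 higher region after PL and 1 lower after DCL. Kif5a had none after PL and 4 higher after DCL. Tubb2a had 1 lower region after DCL, at 7.75 ± 5.67 against 20.5 ± 3.21 (SD, n = 3). Tubb3, Tubb2b and Tuba1a carried no region in any comparison. Of all regions listed after DCL, 82.9% were higher, and 46.5% of the higher ones had the libraries apart. The Cyfip1 region of smallest deposited adjusted p read 75.3, 22.4 and 11.8 after DCL against 3.9, 5.58 and 6.95 in control. All DCL libraries lay above all controls, with means of 36.5 ± 33.99 and 5.48 ± 1.53 (SD, n = 3), and the first-listed DCL library was far the highest.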

How the data were processed

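The 12 libraries comprised 9 of 5-hmC-enriched DNA and 3 inputs, which are not used here. Per the submitters' processing notes, Bowtie2 2.2.0, SAMtools 0.1.19, MACS2 2.1.1 and mm9 were used, with no role given, and the program that called the regions is not given in the sources used here. Per the file headers and values, the authors gave each group's 3 normalised read counts per region, their mean signal, an enrichment ratio (not used here), a log2 fold change and p-values. Neither the test behind the p-values nor library totals are given. All listed regions have a window p under 0.0001, so no model across windows was fitted.

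Regions were matched by gene name, and all 10 members were found in the reference gene table (GRCm38.p6), which supplied the 21896 protein-coding genes. The value of 1 read was found as the step of which low values (under 20 reads) are whole multiples within 0.1 of a step, and the method recovered known steps in simulated data. Means and SDs are over 3 libraries, and log2 ratios are of means with no pseudocount. Every member region was reported. The labels name pools of animals as replicates. Members, lists and alternatives were chosen with earlier results of these data known. Python 3.11.15, numpy 2.4.6, pandas 2.3.3 and matplotlib 3.10.9 were used.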

Additional observations from a re-analysis of the deposited data

Results flagged for a closer look

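In 4 places a member region was listed against control and also in the direct comparison of the lesions, so that the 2 lesions differed by the authors' own test of that difference. The log2 ratio of PL over DCL was −2.0 in Basp1, −1.18 in Dpysl2, −1.88 in Dpysl3 and −1.34 in Marcks. In each the DCL value was also higher than control, but both listings use the same DCL libraries and are not independent. Double listing also occurred outside the members, as 2609 regions had identical bounds in these tables, which list 35242 and 22944. Of the 4 member places, only that in Dpysl3 had identical bounds, and the others overlapped in part. Partial overlap was not counted over all regions, so no like share is set beside the 4. The first-listed DCL library was the highest of the 3 in all 4 member places, and without it the ratios were −1.29, −0.64, 0.07 and −0.36. Its part in the listing was not tested. Groups of 3 libraries are too small for an outlier test.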

How the results depend on the processing

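Counts of member regions and genes were recomputed under 78 settings of result and alternative, and log2 ratios under 207. With a deposited adjusted p under 0.01, higher PL regions and genes were 1 each in place of 3, and lower PL regions 3 in place of 5. With all libraries of one group beyond the other, higher DCL regions were 4 in place of 7 and regions lower in PL than in DCL were 3 in place of 5. Leaving out single libraries, with 1.5-fold kept, higher DCL regions ranged from 2 to 7 and regions lower in PL than in DCL from 3 to 5, the lowest in each without the first-listed DCL library. The Dpysl3 ratio of PL over DCL ranged from −2.34 to 0.0739 and reversed without that library. Medians, a pseudocount of 1 and depth-weighted reads moved no region's ratio beyond the spread between its libraries. For DCL that spread includes the first-listed library. In Dpysl3 medians gave 0.32 in place of 2.05 against control and −0.22 in place of −1.88 between the lesions, and depth-weighted reads gave 1.11 and −0.996. Against control, medians also gave 0.53 in place of 1.41 in Basp1 near the gene end, and 0.61 in place of 1.14 in Dpysl2. Depth-weighted reads gave −0.57 in place of −1.34 in Marcks between the lesions. Among regions with DCL values, medians enlarged the ratio only in Dpysl2 at 42617 bp (−1.56) and Dpysl5 at 51612 bp (1.90). No paired analysis was possible because the 3 values of a cell carry no replicate number. Low values rest on few reads, down to 0 in 1 PL and 1 DCL library, and unlisted windows are unknown.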

Other observations

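Listed regions outside the members' names lay within 50000 bp of 5 of the 6 genes that carried regions, 17 in all. Next to the members 3 were listed between PL and control, all higher, 9 between DCL and control, all higher, and 5 between the lesions, 2 higher and 3 lower. Over all listed regions 50.4%, 82.9% and 24.9% were higher in these tables, so the DCL direction is near the background. An intergenic region 22944 bp upstream of Dpysl2 read 20.9, 33.0 and 39.0 after PL against 6.31, 10.7 and 14.4 in control. Another, 25301 bp downstream of Dpysl2, read 8.06, 10.3 and 12.3 after PL against 0, 4.43 and 0 after DCL.

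Around Dpysl5, an intergenic region 31308 bp upstream read 12.6, 14.9 and 13.2 after DCL against 2.92, 4.34 and 4.81 in control, with the 3 DCL libraries close to each other. A nearer one, 4868 bp upstream, was led by 1 library, at 78.4, 13.4 and 11.2 after DCL against 9.75, 5.58 and 10.15. Mapre3, the downstream neighbour that encodes a protein of growing microtubule ends, had 1 higher region after PL and 2 after DCL within that distance.

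Of the paralogs of the members on the list of 58, the stathmins Stmn1 and Stmn3 and MARCKS-like Marcksl1 carried no region in any table. The members Stmn2 and Stmn4 also carried none, while Marcks did. Over all protein-coding genes 19.5%, 36.8% and 29.5% carried a region in the PL, DCL and lesion against lesion tables. Most genes thus carried none in a given table, and no family pattern is read from these absences. The Marcks regions against control and between the lesions lie 349 and 469 bp past the listed transcript end, and their groups overlapped.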
